A study of Mus musculus with 16 samples.

Results

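TRDV segments are the variable (V) gene segments named for the delta chain of the T cell receptor (TCR), and a small share of the alpha chain transcripts of these CD8 T cells began with one of them. The sequences described here were chosen by the first V hit listed for each clonotype in the deposited tables, so that the V assignment itself is a description and not a result. Among the 8 libraries made from all TCRαβ+ CD8 T cells, 808 of 78671 distinct CDR3 nucleotide sequences (1.03%) and 7380 of 815759 reads (0.905%) had a TRDV segment as first hit. TRDV1 gave 540 of these sequences, TRDV2-1 gave 119, TRDV2-2 gave 146, TRDV4 gave 1 and TRDV5 gave 2. The third complementarity-determining region (CDR3) is the loop encoded where V and joining (J) segments meet.

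The study compared Themis-/- Foxp3-GFP mice, which carry a germline deletion of Themis, with Themis+/+ Foxp3-GFP mice, both on the C57BL/6 background and both carrying the Foxp3-GFP reporter allele. Themis is a signalling protein of developing T cells. For each genotype, sorted CD8 single positive thymocytes and CD8 T cells of the lymph nodes (LN) gave 2 libraries each, and ages were not given. The series describes the 2 libraries of a group as individual mice, whereas the methods describe lymph nodes of several mice pooled before sorting, so that the spread between 2 libraries is all that a test can use here. Library depth ranged from 57455 to 146191 reads and from 4357 to 16670 distinct CDR3 sequences, without molecular identifiers, so that intervals on read shares cover counting error only. The methods' amplification from the alpha constant region leaves expression of marker genes unmeasured, and the labelled CD8 identity could not be checked from these tables.

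In the mouse, the delta locus lies inside the alpha locus, so that a TRDV segment can be joined either to delta D and J segments, giving a delta chain, or directly to a TRAJ segment, giving an alpha chain. Joining a V segment that lies upstream of the delta D segments to a TRAJ segment deletes the delta D, J and constant segments between them. Alpha rearrangement is known to start with the J segments nearest the V segments, which carry the highest TRAJ numbers, and to move in later rounds towards those nearest the constant region. Each joining trims segment ends and adds bases without a template, called N bases.

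In the GRCm38 build, with GENCODE M21 annotation, the V genes lie on chromosome 14. Trdv1 spans chr14:53881612-53882217, Trdv2-1 spans chr14:53946073-53946660 and Trdv2-2 spans chr14:53960944-53961602, all on the plus strand. They end 272.8, 208.3 and 193.4 kb upstream of Traj61, the first J segment, and therefore closer to it than any TRAV segment with 50 or more sequences in these libraries. Trdv4 (chr14:54074905-54075515) lies 79.5 kb upstream of Traj61, and Trdv5 (chr14:54148662-54149294) lies on the minus strand downstream of the delta constant gene. The part of each germline V segment that enters the CDR3 is shown because it sets the first residues of the chains described below. Capitals mark the 4 positions, among 18, at which the 2 TRDV2 segments differ:
Trdv1: tgtggagggaaag
Trdv2-1: tgtgcActcaGggGgAgc
Trdv2-2: tgtgcTctcaTggAgCgc
Trdv4: tgtgggtcagatatc
Trdv5: tgtgcctcggggtat

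The most read TRDV sequences of each genotype and tissue, with the libraries of a group joined, are shown next because they carry the J partners, the lengths and the bases between V and J that the comparisons turn on. Capitals mark bases that belong to neither the alignment of the first V hit nor that of the J segment. In the TRDV2-1 sequence with TRAJ57, which carries the Trdv2-2 end, the first 3 capitals are also the germline bases of Trdv2-2 at that place.
Themis+/+ thymus, TRDV1 with TRAJ57, 219 reads: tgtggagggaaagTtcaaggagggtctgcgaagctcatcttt
Themis+/+ thymus, TRDV1 with TRAJ33, 121 reads: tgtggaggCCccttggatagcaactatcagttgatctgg
Themis+/+ thymus, TRDV1 with TRAJ34, 70 reads: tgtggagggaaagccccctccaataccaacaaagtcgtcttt
Themis-/- thymus, TRDV2-2 with TRAJ57, 71 reads: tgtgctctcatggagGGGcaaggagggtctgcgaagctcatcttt
Themis-/- thymus, TRDV1 with TRAJ44, 65 reads: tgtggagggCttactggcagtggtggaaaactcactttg
Themis-/- thymus, TRDV1 with TRAJ48, 63 reads: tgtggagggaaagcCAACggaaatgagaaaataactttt
Themis+/+ LN, TRDV2-1 with TRAJ52, 75 reads: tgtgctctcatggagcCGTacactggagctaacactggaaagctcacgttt
Themis+/+ LN, TRDV2-1 with TRAJ57, 72 reads: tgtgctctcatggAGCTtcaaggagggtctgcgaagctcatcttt
Themis+/+ LN, TRDV2-2 with TRAJ45, 64 reads: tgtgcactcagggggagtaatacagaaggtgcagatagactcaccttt
Themis-/- LN, TRDV1 with TRAJ40, 178 reads: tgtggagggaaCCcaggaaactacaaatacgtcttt
Themis-/- LN, TRDV1 with TRAJ43, 69 reads: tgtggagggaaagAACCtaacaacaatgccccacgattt
Themis-/- LN, TRDV1 with TRAJ40, 60 reads: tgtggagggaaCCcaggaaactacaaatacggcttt
The 178-read and 60-read sequences of Themis-/- LN differ in the J part only.

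That kind of difference was common. Sequences of 1 library with the same J segment, length and bases before the J alignment were joined into a rearrangement, which left 442 TRDV rearrangements from the 808 sequences, or 1.83 sequences each. For all other V segments the figure was 1.9. By this rule all differences inside a rearrangement lie in the J part. Of the 492 base differences inside TRDV rearrangements, 333 (67.7%) were T to G, and 95.9% lay in the last 9 bases of the CDR3. Among all other V segments the shares were 60.3% and 89.6%. Whether these arose in amplification, sequencing or the cells was not tested, so counts are given below both for sequences and for rearrangements where they differ.

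TRDV1 was read in every library. In Themis+/+ thymus it took 0.368% and 1.34% of the reads, a wide gap between replicates, and in Themis-/- thymus 0.384% and 0.421%. In Themis+/+ LN it took 0.643% and 0.780%, and in Themis-/- LN 0.193% and 0.967%. The 2 genotypes overlapped in both tissues. TRDV2, taking both segments together, took 0.285% and 0.515% in Themis+/+ thymus against 0.166% and 0.128% in Themis-/- thymus. In LN it took 0.603% and 0.547% in Themis+/+ mice, but 0 reads of 66697 and 15 reads of 80850 (0.0186%) in Themis-/- mice. The count of 0 allows a share of up to 0.0045% (3 reads). TRDV2 was thus lower in both Themis-/- libraries than in both Themis+/+ libraries of each tissue, with the widest gap in LN. How many of all V segments separate in this way was not counted, so that this order alone is only a description.

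**Figure D1:**
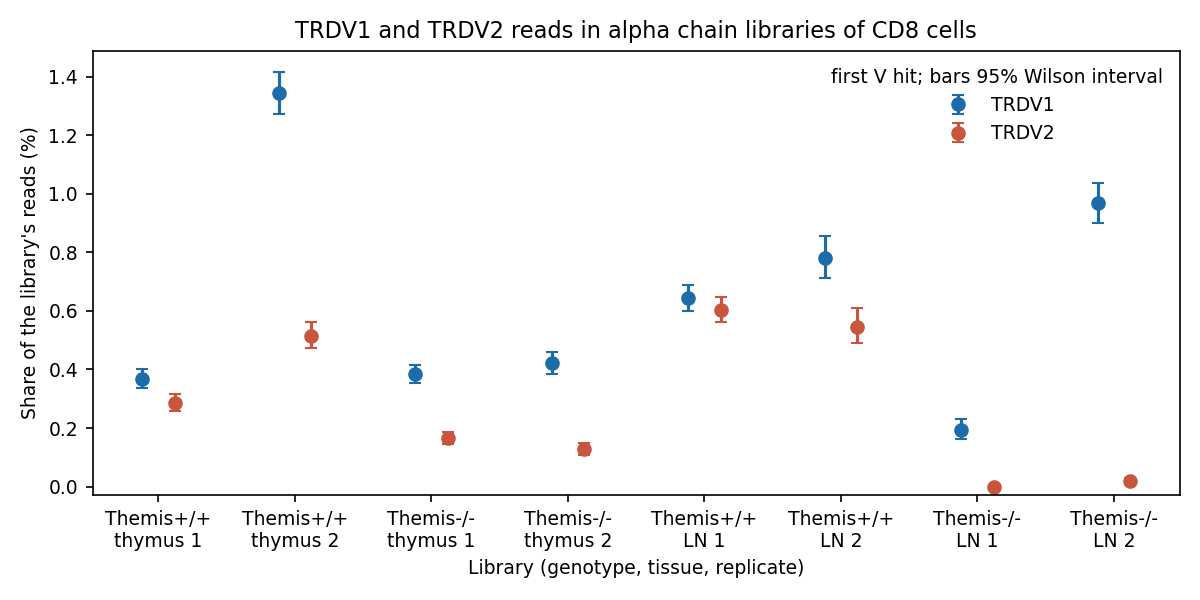
Share of each library's reads (%, vertical axis) with TRDV1 (blue) or TRDV2 (red, TRDV2-1 and TRDV2-2 together) as first V hit, for the 8 libraries along the horizontal axis; bars are 95% Wilson intervals, which cover counting error only. TRDV2 lay near 0 in both Themis-/- LN libraries, at 0% and 0.0186%, and TRDV1 overlapped between genotypes.

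In terms of distinct sequences, TRDV2 had 57 and 66 in Themis+/+ thymus, 18 and 24 in Themis-/- thymus, 71 and 24 in Themis+/+ LN, and 0 and 5 in Themis-/- LN. As rearrangements these were 33 and 38, 11 and 10, 35 and 14, and 0 and 4. The 4 rearrangements of the second Themis-/- LN library had 10, 3, 1 and 1 reads. TRDV2 sequences made up 0.49% ± 0.10 (SD, n = 2) of all sequences in Themis+/+ LN and 0.046% ± 0.065 (SD, n = 2) in Themis-/- LN. TRDV1 had 89 and 136, 42 and 62, 101 and 53, and 9 and 48 sequences in the same order of groups, so that the first Themis-/- LN library was low for both kinds of segment. That library held 4357 distinct sequences, the fewest of the 8.

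V segment reads were compared across all 114 V segments that passed a filter of 10 reads in 2 libraries, with edgeR's quasi-likelihood test and Benjamini-Hochberg adjustment. TRDV1, TRDV2-1 and TRDV2-2 passed this filter, and TRDV4 and TRDV5 did not. Between genotypes in LN, the log2 difference of Themis-/- from Themis+/+ mice was -7.15 ± 1.18 (SE) for TRDV2-1 (edgeR adjusted p = 1.94e-05) and -4.79 ± 1.31 for TRDV2-2 (edgeR adjusted p = 0.0344). They were the only segments that edgeR called, 2 of 114 (1.75%), both lower, while 20 had an unadjusted p under 0.05 and DESeq2 called 7. With both merged, the difference of TRDV2 was -5.79 ± 0.94 (edgeR adjusted p = 1.03e-06). The size of these fitted differences rests on few reads, since Themis-/- LN held 4 reads of TRDV2-1 and 11 of TRDV2-2. Without the second Themis-/- LN library, which held all of them, the fitted difference of merged TRDV2 was -12.23, a value set by the fit and not a bound. TRDV1 differed by -0.34 ± 0.60 (edgeR adjusted p = 0.783), and without the first Themis-/- LN library its estimate changed sign, to 0.39.

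The call on merged TRDV2 in LN stood without any 1 library, with edgeR adjusted p from 3.93e-08 to 0.0226, and when distinct sequences were counted, with a log2 difference of -3.34 (edgeR adjusted p = 0.00219). When rearrangements were counted, an alternative added after the data were seen, the difference was -2.60 (edgeR adjusted p = 0.0701; over this and 6 other alternatives the adjusted p ran from 1.87e-09 to 0.0701). The separate call on TRDV2-2 was lost without either Themis+/+ thymus library, without either Themis+/+ LN library and without the first Themis-/- LN library, with edgeR adjusted p from 0.0535 to 0.166, and in a fit of the 4 LN libraries alone (0.267; over its 8 alternatives from 0.000168 to 0.267).

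In the thymus no segment was called between genotypes by edgeR (0 of 114, 0%), while 8 segments had an unadjusted p under 0.05 and DESeq2 also called 0. The log2 differences of Themis-/- from Themis+/+ thymus were -1.01 ± 0.60 for TRDV1 (edgeR adjusted p = 0.794), -1.59 ± 0.86 for TRDV2-1 (edgeR adjusted p = 0.719), -0.99 ± 1.09 for TRDV2-2 (edgeR adjusted p = 0.838) and -1.48 ± 0.75 for merged TRDV2 (edgeR adjusted p = 0.689). The TRDV1 difference changed sign, to 0.22, without the second Themis+/+ thymus library, which had the highest TRDV1 share of all.

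Comparing the tissues, edgeR called no segment between LN and thymus of Themis+/+ mice (0%), where 0 segments had an unadjusted p under 0.05 and DESeq2 also called 0. Merged TRDV2 differed there by 0.52 ± 0.74 (edgeR adjusted p = 0.965). In Themis-/- mice, the log2 difference of LN from thymus was -4.84 ± 1.11 for TRDV2-1 (edgeR adjusted p = 0.00721), 1 of 2 segments called lower among 114 (1.75%). For merged TRDV2 it was -3.79 ± 0.88 (edgeR adjusted p = 0.00345). Both calls were lost without the first Themis-/- LN library, to adjusted p = 0.104 and 0.106, and without the second Themis+/+ thymus library, to 0.0552 and 0.155. The merged call was lost without the first Themis+/+ thymus library as well (0.101). When distinct sequences were counted the merged difference was -1.71 (edgeR adjusted p = 0.278; over its 7 alternatives from 0.000922 to 0.726). This comparison shares the Themis-/- LN libraries with that between genotypes and is not independent of it.

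The difference between genotypes in LN minus that in thymus was tested directly. It was -5.56 ± 1.39 log2 units for TRDV2-1 (edgeR adjusted p = 0.0237), the only segment called lower of 114 (0.877%). That call was lost with distinct sequences (-1.51, edgeR adjusted p = 0.978), with rearrangements (-1.10, edgeR adjusted p = 0.985) and with TRDV2 assigned by its CDR3 end (edgeR adjusted p = 0.816), over 7 alternatives from 0.0056 to 0.985. The difference was -4.31 ± 1.14 for merged TRDV2 (edgeR adjusted p = 0.0259), -3.80 ± 1.63 for TRDV2-2 (edgeR adjusted p = 0.765) and 0.67 ± 0.85 for TRDV1 (edgeR adjusted p = 0.862). It was not called for merged TRDV2 when sequences were counted (-1.74, edgeR adjusted p = 0.962) or rearrangements (-0.91, edgeR adjusted p = 0.983; over its 6 alternatives from 0.00736 to 0.983).

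The TRAV segments that lie just upstream of TRDV1 also had lower shares in Themis-/- mice. Together TRAV17 to TRAV21 took 2.95% and 4.56% of reads in Themis+/+ thymus, 1.86% and 2.19% in Themis-/- thymus, 3.86% and 3.04% in Themis+/+ LN, and 1.51% and 2.39% in Themis-/- LN. Neither tissue's groups overlapped for this sum. Singly, TRAV19 and TRAV21/DV12 overlapped in neither tissue, and TRAV18 and TRAV20 in both. For TRAV21/DV12 in LN the nearest values were 0.649% in Themis+/+ and 0.633% in Themis-/- mice. The share of all V segments that separate in this way was not counted, so that a lack of overlap alone is only a description. TRAV17 overlapped in thymus only, with 0.416% and 1.15% in Themis+/+ and 0.291% and 0.596% in Themis-/- mice. The log2 differences of TRAV19, the most read of them, were -0.93 ± 0.42 in thymus (edgeR adjusted p = 0.553) and -1.05 ± 0.43 in LN (edgeR adjusted p = 0.162). TRAV18 and TRAV20, with few sequences, had positive differences in LN, 2.96 ± 2.15 and 0.72 ± 1.48 (edgeR adjusted p = 0.499 and 0.827). The part of such neighbours in the TRDV2 difference was not tested.

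TRDV2-1 and TRDV2-2 are nearly alike, with 6 mismatches in the 293 bases before the CDR3 and 4 within it, written from Trdv2-1 to Trdv2-2 and counted from the first CDR3 base: A6T, G11T, G14A and A16C. The first hit and the CDR3 often pointed to different segments. Of the 119 sequences with TRDV2-1 as first hit, 107 (89.9%) had the Trdv2-2 base at position 6 of the CDR3, and of the 146 with TRDV2-2 as first hit, 20 (13.7%) had the Trdv2-1 base. The TRDV2-2 sequence with TRAJ45 printed above is one of these, since it begins as Trdv2-1 does. By this base, 233 TRDV2 sequences (87.9%) carried the Trdv2-2 end and 32 (12.1%) the Trdv2-1 end. The Trdv2-1 end was found in 8 sequences of the first Themis+/+ LN library, in 9 and 10 of the Themis+/+ thymus libraries and in 5 of the second Themis-/- thymus library, and in none of the other 4, of which the first Themis-/- LN library held no TRDV2. When reads were assigned by this base, the LN difference of TRDV2-2 was called and that of TRDV2-1 was not (edgeR adjusted p = 0.179; over its 8 alternatives from 4.72e-09 to 0.179). Both segments are therefore joined as TRDV2 below wherever values are compared between libraries, and values by first hit are given only where V segments are ranked or likened to each other.

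**Figure D2:**
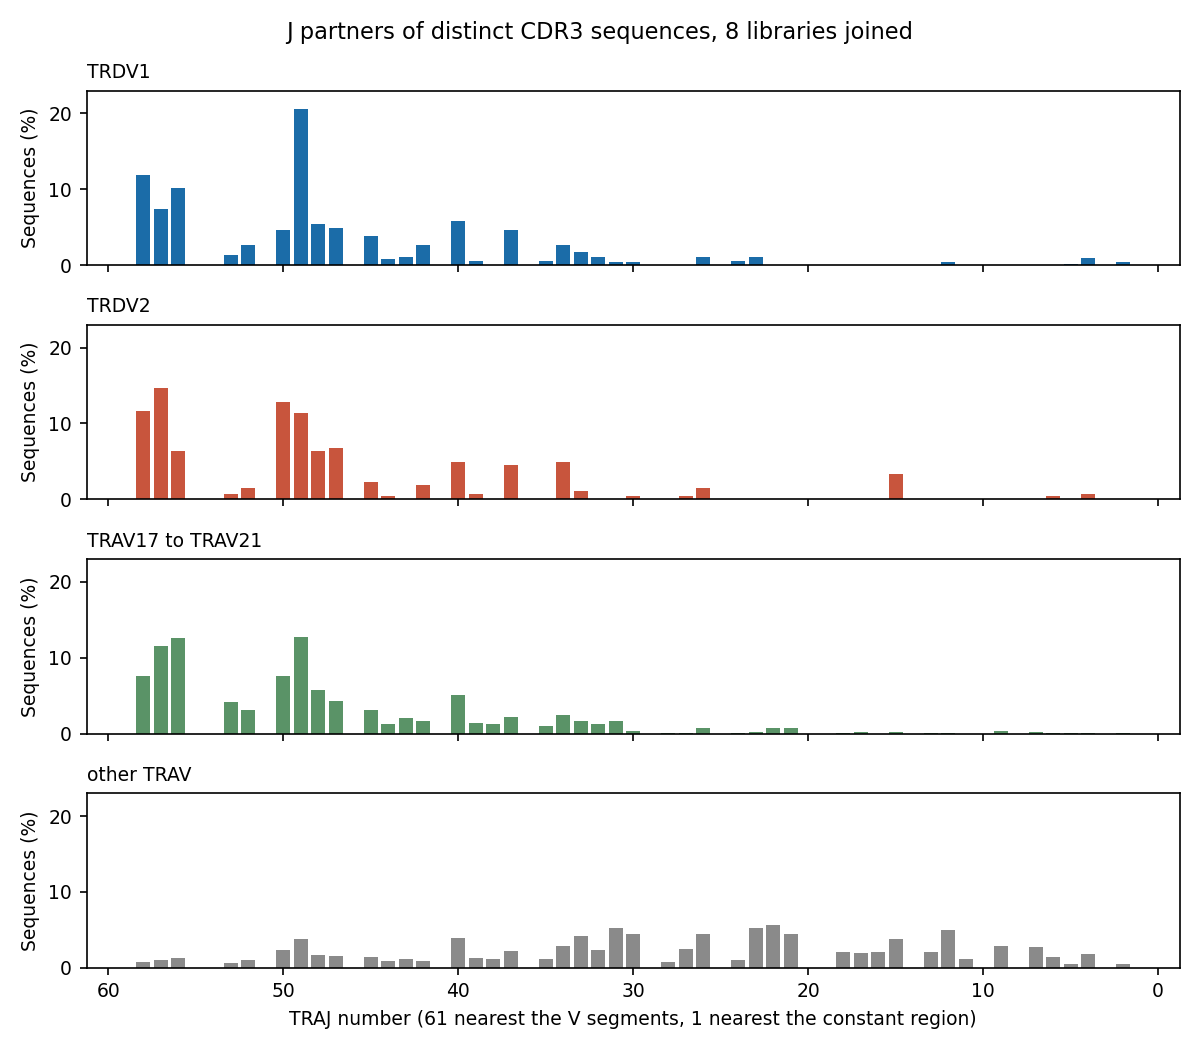
Share of distinct CDR3 sequences (%, vertical axes) by TRAJ number (horizontal axis, from the J nearest the V segments at the left to the J nearest the constant region at the right) for TRDV1, TRDV2, TRAV17 to TRAV21 and the other TRAV segments, 8 libraries joined. TRDV sequences cluster between TRAJ61 and TRAJ48 (63.9% of TRDV1 and 65.7% of TRDV2), as do 64.9% of TRAV17 to TRAV21 sequences, against 12.6% of other TRAV sequences.

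TRDV sequences used the J segments nearest the V segments. The mean TRAJ number of TRDV sequences was 46.3 and 49.4 in Themis+/+ thymus, 47.4 and 46.3 in Themis-/- thymus, 46.4 and 46.5 in Themis+/+ LN, and 44.4 and 46.9 in Themis-/- LN. In the same libraries all other V segments averaged 28.2 and 32.9, 25.6 and 26.2, 32.1 and 29.1, and 26.9 and 27.5. TRDV lay above the other V segments in 8 of 8 libraries, by 18.1 ± 2.27 (SD, n = 8; exact two-sided permutation of the labels within each library, p = 0.00781, the smallest possible; adjusted over 12 tests, 0.0188). TRDV1 alone exceeded them by 18.1 ± 3.11 in 8 of 8 libraries and TRDV2 by 18.8 ± 4.31 in the 7 libraries that held it (exact permutation p = 0.00781 and 0.0156, adjusted 0.0188 and 0.0268). The J position of a sequence was not used in choosing it.

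The J segments with most TRDV sequences were TRAJ49 with 141 (17.5% of TRDV sequences against 4.07% of those of other V segments), TRAJ58 with 95 (11.8% against 0.945%), TRAJ57 with 79 (9.78% against 1.32%), TRAJ56 with 72 (8.91% against 1.68%) and TRAJ50 with 59 (7.30% against 2.52%). TRAJ49 was mostly a TRDV1 partner, with 111 of its 141 sequences, whereas TRAJ50 had 25 TRDV1 and 34 TRDV2 sequences. By blocks, TRAJ48 to TRAJ61 held 60.9% ± 12.9 of TRDV sequences and 14.2% ± 3.61 of those of other V segments (SD, n = 8 libraries). The lowest TRDV library was the first of Themis-/- LN, with 3 of 9 sequences. TRAJ2 to TRAJ20 held 3.04% ± 2.42 of TRDV sequences against 27.4% ± 7.35.

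Joins to J segments near the constant region did occur. The farthest that TRDV sequences reached were TRAJ2 (2 TRDV1 sequences, 22 reads), TRAJ4 (5 TRDV1 and 2 TRDV2 sequences, 79 reads, in 3 libraries), TRAJ5 (1 TRDV1 sequence, 4 reads), TRAJ6 (1 TRDV2 and 1 TRDV4 sequence, 13 reads) and TRAJ12 (2 TRDV1 sequences, 7 reads). In all, 32 TRAJ segments were joined to TRDV and 43 to other V segments.

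The V segments nearest in J use were neighbours on the chromosome. Among 108 V segments with at least 50 sequences over the joined libraries, the highest mean TRAJ numbers were those of TRAV19 (48.3), TRAV21/DV12 (47.9), TRDV2-2 (47.6), TRDV1 (47.3), TRDV2-1 (47) and TRAV17 (45.7). TRAV18, with 15 sequences, averaged 49.4, and TRAV20, with 40, averaged 42.0. The Bray-Curtis distance of J shares to TRDV2-2 was smallest for TRDV2-1 (0.227), TRAV21/DV12 (0.254) and TRDV1 (0.265), against a median of 0.742 over the 107 segments compared. Across these V segments, which share libraries and are not independent, mean TRAJ number fell with distance from Traj61 (Spearman's rho -0.587, Pearson's r -0.664, n = 108, given as a description). Against TRAV17 to TRAV21 as a group, TRDV sequences differed by -0.54 ± 1.05 in TRAJ number (SD, n = 8; lower in 6 of 8 libraries, exact permutation p = 0.180).

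**Figure D3:**
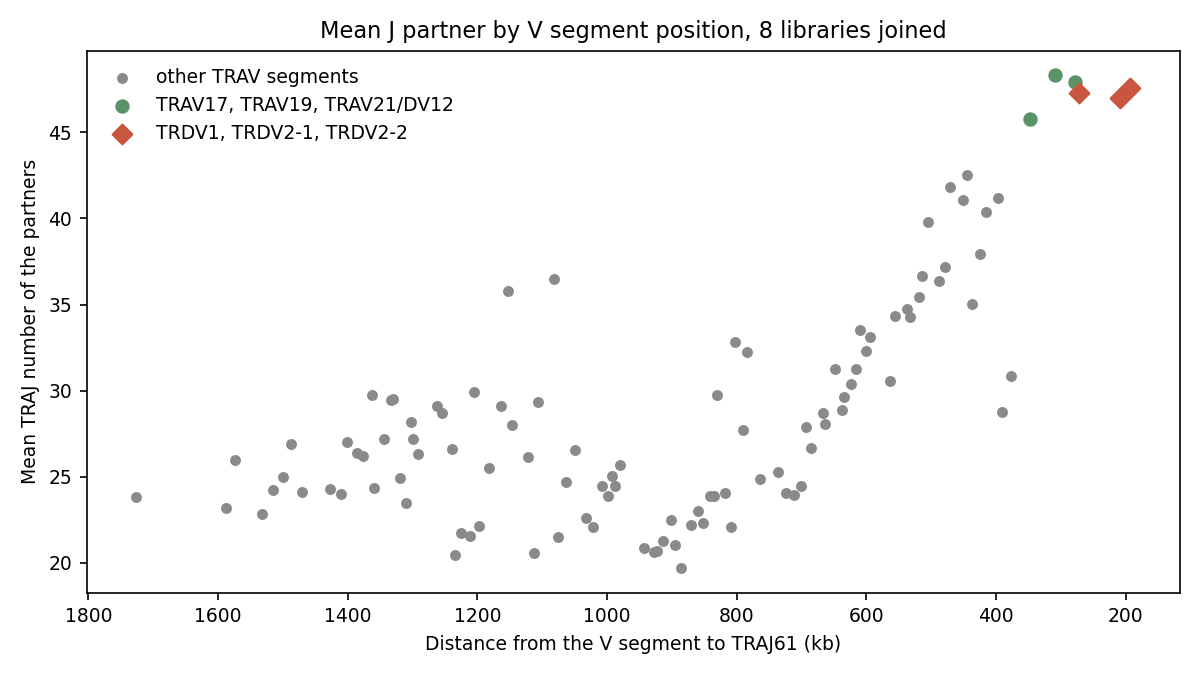
Mean TRAJ number of the J partners (vertical axis) of 108 V segments with at least 50 sequences against the distance of the segment from Traj61 in kb (horizontal axis, nearest at the right), 8 libraries joined. TRDV1, TRDV2-1 and TRDV2-2 (red diamonds) stand at the right with means of 47.3, 47 and 47.6, beside TRAV17, TRAV19 and TRAV21/DV12 (green).

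Segments that carry both a TRAV and a DV name, which can serve either chain, spread over the locus and over the J segments. Their mean TRAJ numbers were 47.9 for TRAV21/DV12, which lies next to TRDV1, 42.5 for TRAV6-7-DV9, 41.8 for TRAV4-4-DV10, 41.2 for TRAV13-4-DV7, 39.8 for TRAV15-2-DV6-2, 33.1 for TRAV15-1-DV6-1, 29.3 for TRAV16D-DV11, 26.3 for TRAV15D-1-DV6D-1, 22.2 for TRAV15D-2-DV6D-2 and 21.5 for TRAV14D-3-DV8.

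Between genotypes, the mean TRAJ number of TRDV sequences differed by -0.92 (Themis-/- minus Themis+/+, averaged over tissues; exact permutation within tissue, p = 0.444, adjusted 0.593). The design allows no p below 0.0556 for such a comparison. The other V segments averaged lower TRAJ numbers in both Themis-/- libraries than in both Themis+/+ libraries of each tissue, as the values above show. Between tissues TRDV differed by -1.26 (LN minus thymus, exact permutation p = 0.333, adjusted 0.533). TRDV1 was 3.14 lower in LN and TRDV2 6.44 higher in LN, each in both genotypes and each at the smallest p the exact permutation allows (0.0556). The TRDV2 value for Themis-/- LN rests on 5 sequences.

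**Figure D4:**
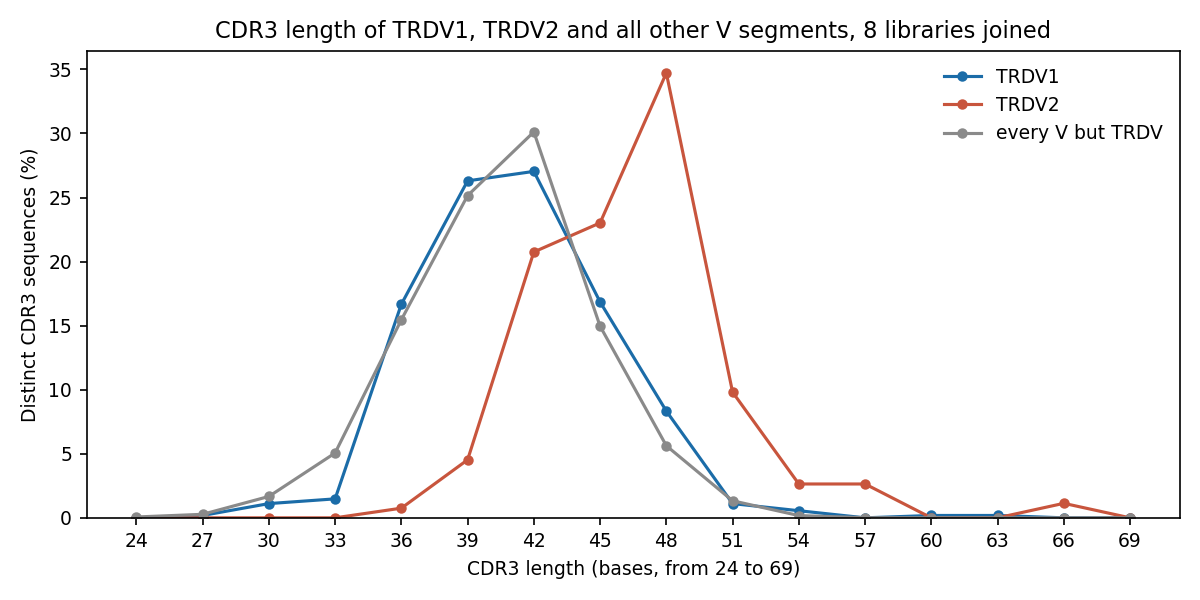
Share of distinct CDR3 sequences (%, vertical axis) by CDR3 length in bases (horizontal axis) for TRDV1 (blue), TRDV2 (red) and all other V segments (grey), 8 libraries joined. TRDV2 peaks at 48 bases with 34.7% of its sequences, and TRDV1 and the other V segments peak at 42 bases with 27.0% and 30.1%.

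TRDV2 chains had longer CDR3 regions than the mean of all other V segments, and TRDV1 chains did not differ from it beyond the spread. Such lengths were not confined to TRDV2. Over the joined libraries the mean was 46.84 bases for TRDV2-1 and 46.15 for TRDV2-2. Between these lay TRAV15-1-DV6-1 (46.74), TRAV15N-1 (46.66) and TRAV15D-1-DV6D-1 (46.41). Just below lay TRAV15-2-DV6-2 (46.05), TRAV15N-2 (45.86) and TRAV15D-2-DV6D-2 (45.39). TRDV2 averaged 46.4 and 46.7 bases in Themis+/+ thymus, 48.8 and 44.5 in Themis-/- thymus, 46.2 and 46.9 in Themis+/+ LN, and 46.8 in the second Themis-/- LN library, while other V segments averaged 40.3 to 40.7 in every library. The difference was 6.07 ± 1.27 bases (SD, n = 7; longer in 7 of 7 libraries, exact permutation p = 0.0156, adjusted 0.0268). For TRDV1 it was 0.58 ± 0.69 (n = 8; longer in 6 of 8 libraries, exact permutation p = 0.0781, adjusted 0.117). Counted from the V alignment with the highest score over the CDR3, the V part of TRDV2 averaged 17.1 ± 1.25 bases against 12.5 ± 0.11 for other V segments, the part between V and J 2.56 ± 0.99 against 1.94 ± 0.12, and the J part 27.0 ± 1.09 against 26.0 ± 0.08 (SD over libraries). The V part therefore held most of the extra length, and the germline V part of both TRDV2 segments is 18 bases against 13 in Trdv1. Sequences were chosen by V segment, so that this part of the length was fixed by the choice. The p-values for length against other V segments are therefore no support for a trait beyond the choice of segment.

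All TRDV sequences were 2.08 ± 0.78 bases longer than other V segments in 8 of 8 libraries (exact permutation p = 0.00781, adjusted 0.0188), a length that includes the V part fixed by the choice. They were 0.93 bases shorter in Themis-/- than in Themis+/+ mice and 0.97 shorter in LN than in thymus, each with the smallest possible exact permutation p (0.0556, adjusted 0.222). Within TRDV1 and within TRDV2, the genotype difference was 0.03 and 0.19 bases (exact permutation p = 1.0 and 0.889).

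The germline start of each segment showed in the residues. Of 540 TRDV1 sequences, 533 (98.7%) had glycine at position 2 of the CDR3 and 531 (98.3%) at position 3, where other V segments most often had alanine (95.6%) and leucine (32.6%). Lysine followed at position 4 in 64.8%. Every one of the 265 TRDV2 sequences had alanine and leucine at positions 2 and 3, and position 4 was methionine in 225 (84.9%), from the Trdv2-2 end, or arginine in 32 (12.1%), from the Trdv2-1 end. Glutamate followed at position 5 in 212 (80.0%). Net charge, counted as lysine and arginine minus aspartate and glutamate, averaged 0.91 ± 0.29 per CDR3 for TRDV1, 0.29 ± 0.22 for TRDV2 and 0.42 ± 0.06 for other V segments (SD over libraries, given with no test). The whole germline V part was kept in 246 TRDV1 sequences (45.6%) and 116 TRDV2 sequences (43.8%).

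TRDV1 junctions held more bases between V and J than the mean of other V segments. The mean was 2.48 and 2.81 in Themis+/+ thymus, 2.79 and 2.94 in Themis-/- thymus, 2.98 and 2.72 in Themis+/+ LN, and 2.78 and 2.46 in Themis-/- LN, against 1.8 to 2.13 for other V segments. The difference was 0.75 ± 0.21 bases (n = 8; higher in 8 of 8 libraries, exact permutation p = 0.00781, adjusted 0.0188). TRDV2 varied from 1.54 to 4.39 between libraries and was higher in 4 of 7 (difference 0.78 ± 1.06, exact permutation p = 0.125, adjusted 0.167). By first hit over the joined libraries, the mean was 2.759 for TRDV1, which ranked 6 of 108, 3.513 for TRDV2-1 and 2.404 for TRDV2-2. Of 119 TRDV2-1 sequences 107 carried the Trdv2-2 end, so that germline bases can count as lying between V and J there. Joined TRDV2 averaged 2.79 ± 1.06 by first hit and 2.56 ± 0.99 by the V alignment with the highest score over the CDR3 (SD, n = 7). Among the neighbours the mean by first hit was 2.383 for TRAV21/DV12, but 1.705 for TRAV19 and 1.623 for TRAV17. TRAV18 and TRAV20, with few sequences, had 2.533 and 2.575. All TRDV sequences exceeded the mean of other V segments by 0.80 ± 0.38 in 8 of 8 libraries (exact permutation p = 0.00781, adjusted 0.0188). They exceeded the joined mean of TRAV17 to TRAV21 by 0.95 ± 0.44, also in 8 of 8. Between genotypes the difference was 0.06 (exact permutation p = 0.889) and between tissues -0.02 (exact permutation p = 1.0).

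A few TRDV junctions held a stretch of Trdd2, a D segment that is normally part of delta chains. Its germline sequence, of 16 bases, is shown with 5 junctions, in which capitals mark the run of bases shared with it:
Trdd2: atcggagggatacgag
TRDV4 with TRAJ6, Themis+/+ LN 1, 1 read: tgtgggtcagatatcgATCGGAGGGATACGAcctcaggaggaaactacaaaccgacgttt
TRDV5 with TRAJ52, Themis-/- LN 2, 40 reads: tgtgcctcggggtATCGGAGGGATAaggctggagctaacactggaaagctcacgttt
TRDV2-1 with TRAJ39, Themis-/- thymus 2, 39 reads: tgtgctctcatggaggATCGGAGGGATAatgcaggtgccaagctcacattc
TRDV1 with TRAJ42, Themis+/+ LN 1, 14 reads: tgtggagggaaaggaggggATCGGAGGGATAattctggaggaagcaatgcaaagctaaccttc
TRDV1 with TRDJ1, Themis+/+ LN 2, 10 reads: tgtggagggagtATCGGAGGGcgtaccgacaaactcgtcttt
Runs of 10 or more Trdd2 bases were found in 9 of 808 TRDV sequences (1.11%, 95% Wilson interval 0.587% to 2.10%), forming 7 rearrangements in 4 libraries. Among other V segments they were found in 14 of 77863 sequences (0.018%, 0.0107% to 0.0302%), forming 9 rearrangements. Both intervals cover counting error only and treat sequences as independent, which sequences of 1 rearrangement or 1 library are not. The minimum of 10 was chosen after the sequences were seen. With 8 bases the counts were 31 (3.84%) and 268 (0.344%), but all 18 TRDV matches of 8 or 9 bases with a TRAJ partner began inside the V part, which itself resembles Trdd2. No TRDV sequence held 8 bases of Trdd1.

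The TRDV1 sequence with TRDJ1 was the most read of 4 that differ in the J part only (10, 3, 2 and 1 reads), all in the second Themis+/+ LN library and all with an alpha constant hit. Of the 808 TRDV sequences, 805 had an alpha constant hit and 3 had none. No sequence of any V segment had a delta constant hit, in libraries primed from the alpha constant region. Alpha chains with the V and J pairing of other T cells were counted by segment names only, with no check of the CDR3. TRAV11 with TRAJ18, the pairing of the invariant NKT chain, took 0% to 0.419% of reads, and TRAV1 with TRAJ33, that of MAIT cells, 0% to 0.0424%. The former was higher in both Themis-/- thymus libraries (0.354% and 0.419%) than in both Themis+/+ thymus libraries (0.0553% and 0.116%), and 0.0418% or less in LN. Its part in the TRDV shares was not tested.

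**Figure D5:**
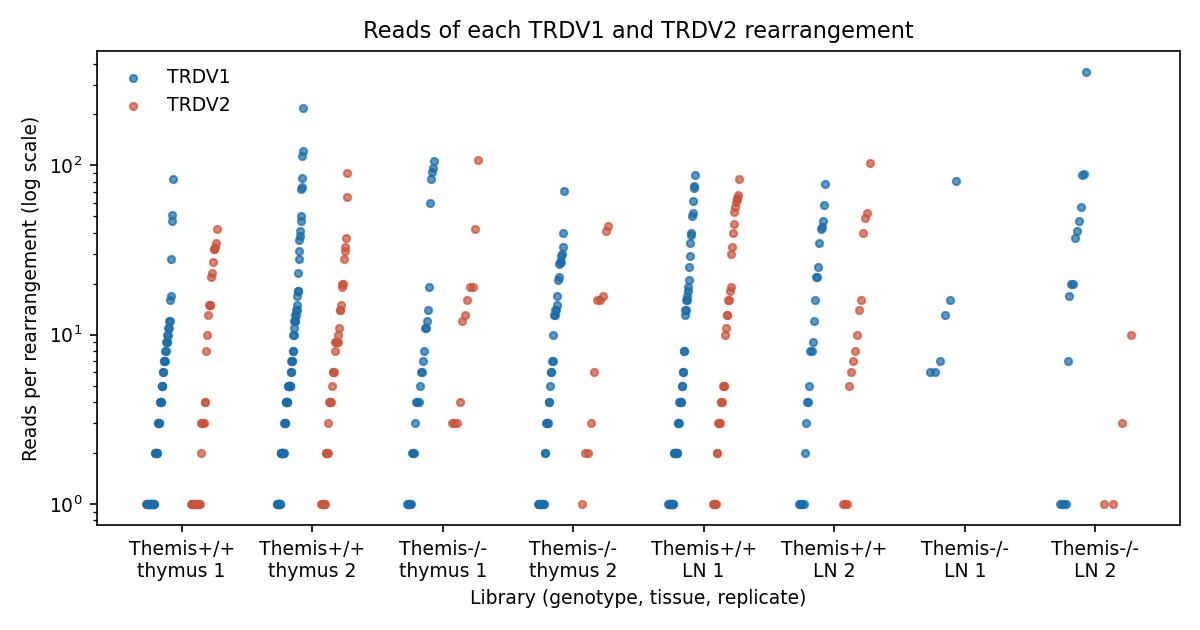
Reads of each TRDV1 (blue) and TRDV2 (red) rearrangement (vertical axis, log scale) in each of the 8 libraries (horizontal axis); each point is 1 rearrangement. The first Themis-/- LN library held 6 TRDV1 and no TRDV2 rearrangements, and the largest point, with 355 reads, is a TRDV1 rearrangement of the second Themis-/- LN library.

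The number of TRDV rearrangements was 91 and 112 in Themis+/+ thymus, 38 and 50 in Themis-/- thymus, 87 and 38 in Themis+/+ LN, and 6 and 20 in Themis-/- LN. The Themis-/- LN libraries also held the fewest distinct sequences of all V segments (4357 and 5416). As a share of these, TRDV sequences made up 0.207% and 0.997% in Themis-/- LN and 1.37% and 1.34% in Themis+/+ LN. In thymus the shares were 0.876% and 2.15% in Themis+/+ and 0.489% and 0.708% in Themis-/- mice. The second Themis-/- LN library thus lay above the first Themis+/+ thymus library and both Themis-/- thymus libraries. The largest rearrangement held 62.8% of the TRDV reads of the first Themis-/- LN library (81 reads; TRDV1 with TRAJ43, CDR3 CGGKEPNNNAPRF) and 42.4% of those of the second (355 reads; TRDV1 with TRAJ40, CDR3 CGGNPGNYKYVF). In the other 6 libraries the largest held 5.62% to 13.6%. For the neighbouring TRAV segments in Themis-/- LN, the largest rearrangement held 26.3% and 56.4% of the reads of TRAV17 (5.78% to 19.7% in the other 6 libraries), 40% and 15.5% of those of TRAV19 (5.82% to 16.9%), and 25.4% and 40.8% of those of TRAV21/DV12 (8.93% to 29.0%), so that 1 of their 2 libraries lay inside the range of the others for both TRAV19 and TRAV21/DV12. No test was made of these shares, which also depend on how many rearrangements a library holds. The level of TRDV1 in the second Themis-/- LN library therefore rested to a large extent on 1 rearrangement.

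Reads per sequence did not differ detectably between TRDV and other V segments, at a mean log2 difference of -0.001 ± 0.30 (SD, n = 8; lower in 4 of 8 libraries, exact permutation p = 0.992). TRDV sequences had 0.56 log2 units more reads in Themis-/- than in Themis+/+ mice (exact permutation p = 0.111, adjusted 0.296) and 0.40 more in LN than in thymus (exact permutation p = 0.222, adjusted 0.444). Other V segments averaged 2.04 and 2.34 log2 reads in Themis+/+ thymus and 2.45 and 2.28 in Themis-/- thymus. In LN they averaged 2.33 and 2.25 in Themis+/+ and 2.65 and 2.69 in Themis-/- mice. The part of such library-wide values in the TRDV differences was not tested. Sequences of 1 read made up 8.33% to 29.5% of TRDV sequences by library.

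Most TRDV sequences were seen in 1 library. Of 780 distinct TRDV nucleotide sequences, 26 (3.33%) were found in 2 or more libraries, and of 69424 of other V segments 5839 (8.41%). By amino acids the shares were 5.31% and 18.3%. No TRDV sequence was found in more than 3 libraries. The 2 that reached 3 libraries had 3 bases and 1 base between V and J:
TRDV2 with TRAJ57, 47, 8 and 7 reads in Themis+/+ LN 1, Themis+/+ LN 2 and Themis-/- LN 2: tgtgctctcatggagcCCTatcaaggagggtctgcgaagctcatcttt
TRDV1 with TRAJ56, 10, 5 and 3 reads in Themis+/+ thymus 2, Themis-/- thymus 2 and Themis-/- LN 2: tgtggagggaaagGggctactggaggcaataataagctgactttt
The first of them supplied 7 of the 15 TRDV2 reads of Themis-/- LN.

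In level over the 8 libraries, TRDV2-2 was most like TRDV2-1 (Pearson's r of log2 CPM 0.954), TRAV10 (0.892) and TRAV3D-3 (0.888), of 113 segments compared. TRDV2-1 and TRDV2-2 share reads through their near-identity, so that the first value is no sign of separate segments moving together.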

How the data were processed

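TCR alpha chains of CD8 T cells from 8 libraries of all cells and 8 libraries of Vα3.2+ cells were available, and 4 groups of 2 libraries of all cells were compared. Per the methods and labels, total RNA was amplified by template-switch 5′ RACE with 2 rounds of PCR, the first primed in the alpha constant region, without molecular identifiers, sequenced on a MiSeq, and assembled into clonotypes by MiXCR, of a version that the sources used here do not state. The submitters' processing notes name CASAVA 1.4 and mm9. The deposited tables hold, per distinct CDR3 nucleotide sequence, a read count and a fraction of the library's reads, which equals the count over the total. The tables hold no coordinates, and positions here are from GRCm38 (GENCODE M21), whose transcripts also gave the germline V and D sequences. No genome sequence was used.

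A sequence was TRDV if its first V hit was. The members, the lists and the tests were chosen with earlier results of these data known. Named genes were the members, the 5 J segments with most TRDV sequences and the 5 farthest ones, TRAV17 to TRAV21, segments with a DV name, the 3 V segments most like TRDV2-2 in level and in J use, and the 3 most read TRDV sequences per group with those in most libraries. TRDV1, TRDV4 and TRDV5 were added because the first-hit rule takes them too.

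V segment counts were tested with edgeR 4.0.16 (quasi-likelihood, TMM, at least 10 reads in 2 libraries, all 8 libraries in 1 fit, adjusted p threshold 0.05) in R 4.3.3. Mean TRAJ number, CDR3 length, bases between V and J (J start minus V end, not below 0) and log2 reads per sequence were averaged over the distinct sequences of a library and compared by exact two-sided permutation in Python 3.11.15 with scipy 1.17.1. The p-values measure the spread between these libraries only. The scripts were tested on simulated data. Alternatives were total-read scaling, DESeq2 1.42.0, no filter, the 4 libraries of a comparison, the replicate number as a block, sequences in place of reads, merged TRDV2, weighting by reads, leaving out single-read sequences, TRDV2-2 only, equal best hits, TRAV17 to TRAV21 as the comparison, amino acid sequences, thinning to 57455 reads (20 draws) and leaving out each library. Counting rearrangements, assigning TRDV2 by its CDR3 end, TRDV1 or TRDV2 alone and another V end were added after the data were seen. Replicates of a group shared 2.74% to 7.30% of their sequences, so none was a copy of another. Precision is limited by 2 libraries per group and by 57455 to 146191 reads a library.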

Additional observations from a re-analysis of the deposited data

Results flagged for a closer look

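The genotype difference of TRDV2 reads in LN was set against that in thymus. The test of the difference between them (LN minus thymus, edgeR) gave -5.56 log2 units for TRDV2-1 (adjusted p = 0.0237) and -4.31 for TRDV2-1 and TRDV2-2 merged (adjusted p = 0.0259). Over the leave-one-out fits the first ran from -9.96 to -4.68 and the second from -10.76 to -3.66, with adjusted p up to 0.667 and 0.901, so that the call did not stand without each library in turn although its direction did. When distinct sequences were counted the values were -1.51 and -1.74 (adjusted p = 0.978 and 0.962), and with rearrangements -1.10 and -0.91 (adjusted p = 0.985 and 0.983), so that neither call was made on those counts. With TRDV2 assigned by its CDR3 end, TRDV2-1 was not called either (adjusted p = 0.816). Groups of 2 libraries are too small for a test of single outlying libraries.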

How the results depend on the processing

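Of 107 alternative values for single segments that were called, 40 lost the call and 67 kept it. Of 209 for segments not called, 13 changed sign and 3 gained a call. Of 72 for TRDV against other V segments, 3 lost significance and 7 changed sign, and of 68 numbers of segments called, 21 moved by over 1.5 times. Causes were not tested unless named. The excess of TRDV in TRAJ number over other V segments was 17.6 to 18.7 without any 1 library and became -0.54 against TRAV17 to TRAV21, which replaces the group compared. The excess in CDR3 length did not pass for TRDV1 alone (0.58), and that in bases between V and J did not pass for TRDV2-2 (0.32) or TRDV2 (0.78) alone. The latter differences had both signs among libraries, from -0.84 to 2.82 for TRDV2-2 and from -0.37 to 2.395 for TRDV2.

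The permutation tests of J position, length, bases between V and J and reads per sequence between genotypes or tissues could not pass the threshold, their smallest p being 0.0556, so that only the sign is informative, and it changed in 25 of 136 values. The genotype difference in TRAJ number became 0.0934 with TRDV2-2, 0.98 with TRDV2 and 0.17 with rearrangements, and that between tissues 5.43 with TRDV2-2 and 6.44 with TRDV2. The genotype difference in length became 0.87 with TRDV2-2, 0.0323 with TRDV1 and 0.19 with TRDV2, and that between tissues 1.32 with TRDV2-2 and 0.0573 with TRDV2. The genotype difference in bases between V and J became -0.12 without sequences of 1 read, -0.00796 with TRDV1 and -0.0243 after thinning, and ran from -0.15 to 0.27 over the leave-one-out values. That between tissues became 0.49 weighted by reads, 0.0211 with the V end of the best CDR3 alignment and 0.0172 after thinning, and ran from -0.22 to 0.19. Reads per sequence against other V segments became 0.0562 against TRAV17 to TRAV21 and 0.00323 after thinning, and ran from -0.0654 to 0.0499. With TRDV2 alone the differences in log2 reads were -0.40 between genotypes and -0.34 between tissues.

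The number of V segments called between genotypes in LN was 7 with DESeq2, 1 with the 4 libraries alone, 9 with distinct sequences, 1 with TRDV2 assigned by its CDR3 end, and 1 to 9 over the leave-one-out fits. In thymus it was 3 with distinct sequences and 1 with rearrangements. Between LN and thymus of Themis-/- mice it was 0 with the 4 libraries alone, 5 with distinct sequences, 1 by CDR3 end and 0 to 9 over the leave-one-out fits.

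TRDV1 changed sign over the leave-one-out fits in each comparison, from -1.76 to 0.22 between genotypes in thymus, from -1.69 to 0.39 in LN, from -0.93 to 1.11 between tissues of Themis+/+ mice, from -0.86 to 1.28 between those of Themis-/- mice, and from -0.59 to 1.59 for the difference of the genotype differences. With rearrangements it was -0.18 between tissues of Themis-/- mice. Between tissues of Themis+/+ mice TRDV2-1 became -0.0802 with distinct sequences, -0.30 with rearrangements and -0.24 by CDR3 end, and TRDV2-2 ran from -0.0594 to 1.03.

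With the replicate block, 1 segment was called between tissues of Themis-/- mice, and TRDV1 became 0.15 between tissues of Themis+/+ mice and -0.0083 for the difference of the genotype differences. The block changed the call of no TRDV segment. Deviations from group means correlated by -0.25 to 0.06 between groups, over 114 segments. With 2 libraries a group, these values cannot tell whether equal replicate numbers mark a shared mouse, pool or experiment. The paper states that the data of each genotype came from separate experiments, and whether the replicate numbers follow these is not known.

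Depth limits the low end, since 1 Themis-/- LN library held no TRDV2 read and the other 15, so that the size of the fitted LN differences is not well set.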

Other observations

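In the 8 libraries of sorted Vα3.2+ CD8 cells, 1 of 5321 sequences had a TRDV first hit, with 1 of 155773 reads, in a Themis-/- LN library. That is under the 3 reads that a count of 0 allows. Besides the TRDV1 sequences given above, 3 sequences with a TRDJ hit, 32 reads in all, were found in the libraries of all CD8 cells, each in the second Themis+/+ thymus library and each with a TRAV first hit.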
